A study of Danio rerio with 5 samples.

Results

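Zic, Irx and Otx genes encode transcription factors that pattern the vertebrate neural plate. Zic proteins carry zinc fingers and act in the neural plate border, the neural crest and the dorsal neural tube, while Irx (Iroquois) and Otx proteins carry homeodomains and help divide the plate into forebrain, midbrain and hindbrain territories. The genes were taken by name from the deposited gene table, which holds 22656 genes: zic1, zic2a and zic2b, irx7 and irx1b, otx2, and the anterior neural regulator genes hesx1 and fezf2. All 8 were found, each as 1 row. The row written otx2 is the gene that RefSeq (assembly GRCz12tu) now calls otx2b, so otx2 and otx2b are 1 gene here, and no row carries the name otx2b.

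Total RNA had been sequenced from whole Tübingen zebrafish embryos without chorion and yolk, at 4 hours post-fertilisation (hpf; sphere stage, the mid-blastula transition, MBT; n = 3 libraries) and at 5.3 hpf (30% epiboly, post-MBT; n = 2 libraries). The labels name no mutant allele and no treatment for either stage, and they leave out how many embryos and clutches stand behind a library. P-values therefore measure the spread between these libraries, which may be technical. In whole embryos, a change in the number of cells that express a gene and a change in RNA per cell cannot be told apart.

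The libraries held 2488983 to 3701401 counts, of which mitochondrial genes took 43.0% to 51.5%. Levels are CPM, counts scaled to a common library size with TMM factors, and 3 counts, the most that a count of 0 allows, came to 0.688 to 1.11 CPM in the 5 libraries. Intervals and floors cover counting error only. The blastoderm genes pou5f3, nanog and sox19b summed to 1176 to 1313 CPM at the MBT and 1969 to 1991 CPM after it. Of these, pou5f3 was called up and nanog and sox19b were called down. The fall of nanog was slight (log2 fold change -0.15, edgeR adjusted p = 0.0454) beside that of sox19b (-1.74). The keratin genes krt4, krt8 and krt18 of the enveloping layer all rose, from summed levels of 74.2 to 90.6 CPM to 655 to 666 CPM, and so did the mesendoderm genes ta, tbx16 and mixl1, from 142 to 173 CPM to 1480 to 1569 CPM. Of the yolk syncytial layer genes 1 of 2 rose (hnf4a) and 1 fell (mxtx2), from 13.5 to 15.7 CPM to 32.5 to 36.8 CPM in sum. The MBT libraries held no count of hnf4a, so, being tested, it had to be higher after the MBT. The fall of mxtx2 was near the threshold (log2 fold change -0.57, edgeR adjusted p = 0.0454). Of the germ plasm genes with a row 1 of 2 fell, at 76.6 to 83.1 CPM before and 79.2 to 81.0 CPM after in sum. What part any of these cell types has in the changes below was not tested. Of the 5 neuron markers elavl3, elavl4, gap43, neurod1 and snap25a, 2 had a row, neither had enough counts for a test, and the highest count in a library was 10.

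The comparison of the stages showed a divided group. The genes zic2a, zic2b and irx1b rose, irx7 fell by a small amount that not every test called, and zic1, otx2, hesx1 and fezf2 had too few counts to be tested. A change was called where the edgeR quasi-likelihood p, adjusted by Benjamini and Hochberg's method over 12007 tested genes, was under 0.05, and 31.0% of these genes rose and 31.8% fell. Against that background, 4 of the 8 genes were tested, and of these 4 tested genes 3 rose and 1 fell. The filter on low counts was passed by irx1b in the post-MBT libraries alone, so, being tested, it had to be higher there.

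**Figure D1:**
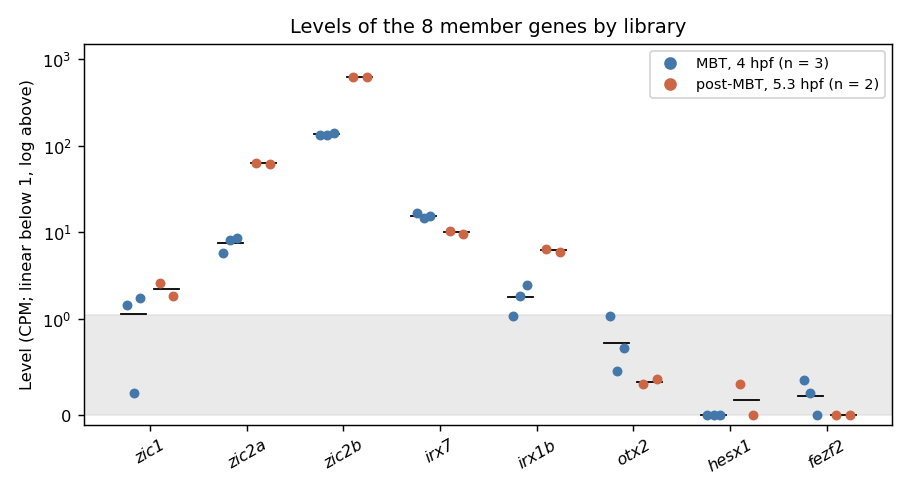
Level of each gene in each library in CPM (vertical axis, linear below 1 and logarithmic above), with points for libraries, bars for stage means and a grey band up to the highest floor of 3 counts (1.11 CPM). The post-MBT points of zic2a, zic2b and irx1b lie above the MBT points, those of irx7 lie below, and otx2, hesx1 and fezf2 lie within the band at both stages.

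The gene zic2b (chr1:29054114-29056918, plus strand, build D_rerio_Sep_2014) was the most abundant member at both stages. Its level was 132, 134 and 140 CPM in MBT libraries A, B and C, and 622 and 630 CPM in post-MBT libraries A and B. The groups lay far apart, and within each stage the libraries were close together. The mean rose from 135 ± 4.36 CPM (SD, n = 3) to 626 ± 5.84 CPM (SD, n = 2), a 4.62-fold change with a log2 fold change of 2.21 ± 0.07 (SE; edgeR adjusted p = 1.93e-41). Per kb of exonic length, zic2b ranked 467th among the 22656 genes at the MBT and 87th after it. These levels rest on 1353 counts at the MBT and 3626 counts after it.

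Its paralog zic2a (chr9:31471484-31476264, plus strand), whose product acts in the forebrain and the dorsal midline of the neural tube, had a lower level at both stages and a larger fold change. Its level was 5.77, 8.26 and 8.71 CPM in the MBT libraries and 63.7 and 62.1 CPM in the post-MBT libraries. All post-MBT values were several times the highest MBT value. The log2 fold change was 3.03 ± 0.18 (SE; edgeR adjusted p = 1.40e-25), an 8.15-fold rise, which ranked 284th among the rises of all tested genes, while zic2b ranked 578th. Among the deposited gene models one locus of unknown function, LOC101882140, spans zic2a on the same strand, and it had 8 counts over the 5 libraries.

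The ratio of the paralogs within a library does not depend on how libraries are scaled. There were 0.0450, 0.0624 and 0.0632 zic2a counts per zic2b count in the MBT libraries and 0.103 and 0.0988 in the post-MBT libraries. In these ratios 0.5 was added to each count. The ratio was 1.79-fold higher after the MBT, the stages did not overlap, and the exact permutation test (2-sided, n = 3 against 2) gave p = 0.1, the smallest that 10 splits allow. The paralogs are similar in coding sequence, and the sources used here do not give how reads matching both were handled, which leaves the split of reads between them uncertain.

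The third Zic gene of the group, zic1 (chr24:4938793-4941945, minus strand), which is expressed later in the dorsal neural tube, was near the limit of detection. It had 4, 1 and 5 counts at the MBT and 8 and 5 counts after it. These are 1.44, 0.229 and 1.74 CPM against 2.58 and 1.86 CPM, so the lowest post-MBT library lay just above the highest MBT library. Pooled over the libraries, the ratio of post-MBT to MBT was 2.24, with a 95% exact counting interval of 0.908 to 5.71 that includes no change. With no filter on low counts its log2 fold change was 1.06 ± 0.72 (SE; edgeR adjusted p = 0.290).

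Both zic2a and zic1 lie head to head with another Zic gene, and the partners had different levels. On chromosome 9, zic5 and zic2a are transcribed away from each other with 4181 bp between them. While zic2a rose 8.15-fold, zic5 had 3, 13 and 5 counts at the MBT and 8 and 8 after it, a pooled ratio of 1.31 with a 95% exact counting interval of 0.641 to 2.64. The intervals of the pooled ratios of zic5 and zic2a (6.38 to 10.6) do not overlap. On chromosome 24, zic1 and zic4 are separated by 1186 bp, and zic4 had 1 count in all 5 libraries.

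**Figure D2:**
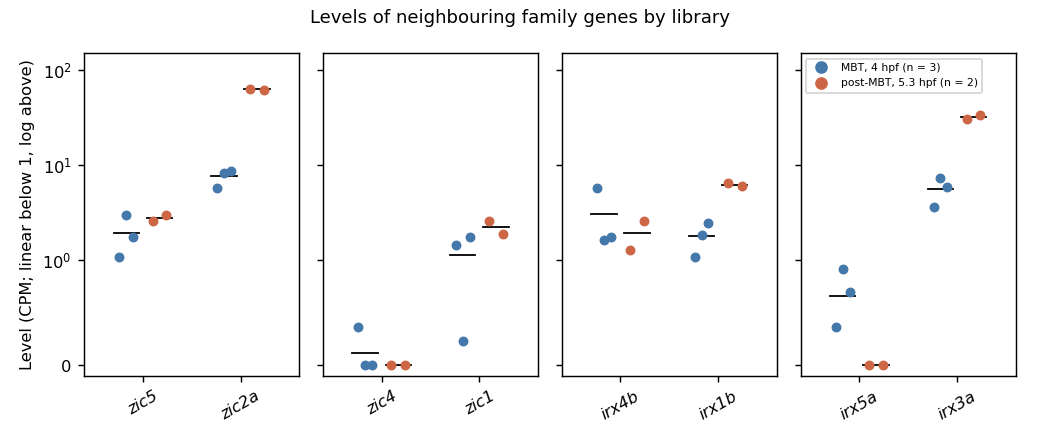
Levels in CPM (linear below 1, logarithmic above) of 4 pairs of neighbouring family genes, with points for libraries and bars for stage means. In the pairs of zic5 with zic2a, irx4b with irx1b, and irx5a with irx3a, the second gene was called up and the first had too few counts for a test.

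The Iroquois genes of the group were called in opposite directions, irx1b up and irx7 down, and each call has a limit given below. The gene irx1b (chr19:28543431-28546435, minus strand), a relative that acts with irx7 in the zebrafish midbrain and hindbrain territory, had 3, 8 and 7 counts at the MBT and 20 and 16 counts after it. Its level was 1.08, 1.84 and 2.44 CPM in the MBT libraries and 6.44 and 5.95 CPM in the post-MBT libraries. The stages did not overlap, although each value rests on at most 20 counts. Since irx1b passed the filter on low counts in the post-MBT libraries alone, its direction was set by being tested. The log2 fold change was 1.76 ± 0.46 (SE; edgeR adjusted p = 5.58e-04), and the pooled ratio of 3.45 had a 95% exact counting interval of 1.91 to 6.45.

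The gene irx7 (chr23:37884213-37885532, plus strand) encodes an Iroquois factor that patterns the zebrafish hindbrain and its boundary with the midbrain. It had 46, 64 and 44 counts at the MBT and 32 and 26 counts after it. The level was 16.6, 14.7 and 15.3 CPM in the MBT libraries and 10.3 and 9.66 CPM in the post-MBT libraries. Each post-MBT value lay below each MBT value, and the difference was small beside those of the Zic genes. The level fell 1.54-fold, with a log2 fold change of -0.62 ± 0.25 (SE; edgeR adjusted p = 0.0223). This call was lost with the DESeq2 Wald test (adjusted p = 0.180), without post-MBT A (edgeR adjusted p = 0.0856) and without post-MBT B (edgeR adjusted p = 0.123), within a range of 3.24e-04 to 0.180 over 13 alternatives. The direction was downward in all 13. Since the stages did not overlap, leaving out a library could not reverse it, so the kept direction is not further support there.

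The balance between these genes, read within each library, restates their opposite changes. Since irx1b passed the filter on low counts in the post-MBT libraries alone, the direction of this ratio is not further support. There were 13.3, 7.59 and 5.93 irx7 counts per irx1b count in the MBT libraries (with 0.5 added to each count) and 1.59 and 1.61 in the post-MBT libraries. The ratio was 5.28-fold lower after the MBT, without overlap, and the exact permutation test (2-sided, n = 3 against 2) again gave its smallest possible p of 0.1.

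Of 10 Irx genes with a row, 3 were tested, of which 2 rose and 1 (irx7) fell, against 31.0% and 31.8% of all tested genes. Of the 2 rises, that of irx1b had its direction set by being tested, since it passed the filter in post-MBT libraries alone. The call of irx7 was lost with the DESeq2 Wald test. The third tested gene was irx3a, an Iroquois gene outside the group, which rose from 5.62 ± 1.88 CPM (SD, n = 3) to 32.0 ± 2.02 CPM (SD, n = 2), a log2 fold change of 2.44 ± 0.23 (SE; edgeR adjusted p = 1.66e-15). An eleventh listed gene, irx6a, is in the authors' deposited list of genes with under 1 count. Summed per kb, the 10 Irx genes stood at 19.1 ± 0.845 CPM per kb at the MBT and 25.6 ± 0.731 CPM per kb after it. The share of irx7 in that sum was 70.4%, 68.1% and 68.2% in the MBT libraries and 34.8% and 31.4% in the post-MBT libraries. The sum was 1.34-fold higher after the MBT with TMM factors and 1.01-fold with library totals, an alternative added after seeing the data, so no rise of the sum is read from it. Its leading gene was another one. Per kb, irx7 had the highest level at the MBT (13.1 ± 0.824 CPM per kb) and irx3a after it (11.3 against 8.45 CPM per kb). Irx genes too lie in clusters. The gene irx4b, 125 kb from irx1b with no gene model between them, had 16, 7 and 5 counts at the MBT and 4 and 7 after it. The gene irx5a, 331 kb from irx3a, had 7 counts at the MBT and none after it.

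The gene otx2 (chr17:44129318-44135963, minus strand), a regulator of forebrain and midbrain identity, was hardly detected at either stage. It had 3, 2 and 2 counts at the MBT and 1 and 1 after it. All post-MBT values and 2 of 3 MBT values lay under the level of 3 counts. The pooled ratio of 0.493 had a 95% exact counting interval of 0.05 to 2.59, which includes no change. Neither a fall nor a rise within that interval could be told from no change at this depth. Rises of more than 2.59-fold lie outside it, for counting error alone.

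Other Otx genes carried counts. The row written otx1b, now named otx1 in RefSeq, had 271, 464 and 306 counts at the MBT and 104 and 92 counts after it. It fell from 104 ± 5.05 CPM (SD, n = 3) to 33.8 ± 0.501 CPM (SD, n = 2), a log2 fold change of -1.62 ± 0.13 (SE; edgeR adjusted p = 1.73e-19). The row written otx1a, now named otx2a in RefSeq, had 4 counts in each MBT library and 28 and 25 counts after it. It rose from 1.25 ± 0.290 CPM (SD, n = 3) to 9.15 ± 0.196 CPM (SD, n = 2), a log2 fold change of 2.88 ± 0.44 (SE; edgeR adjusted p = 3.22e-08), and it passed the filter on low counts in the post-MBT libraries alone. Per kb, the 4 Otx genes with a row summed to 42.5 ± 1.91 CPM per kb at the MBT and 19.1 ± 0.436 CPM per kb after it, and otx1b held 97.7 ± 0.690% and 71.0 ± 0.570% of that sum. The fourth gene, crx, had 2 counts in all.

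**Figure D3:**
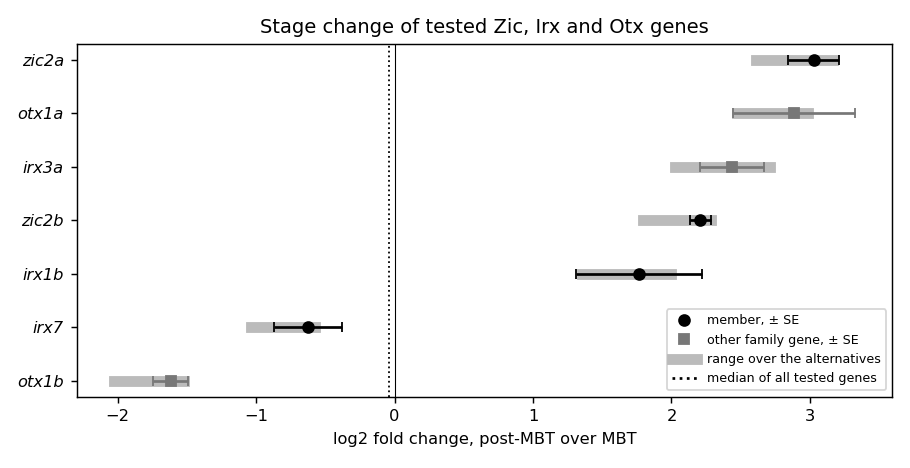
Log2 fold change of post-MBT over MBT (horizontal axis) with its SE for 7 tested Zic, Irx and Otx genes, with grey bars for the range over the 13 alternatives. From zic2a at 3.03 to irx1b at 1.76 the genes lie to the right of the median of all tested genes (dotted line, -0.04), while irx7 at -0.62 and otx1b at -1.62 lie to its left.

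The anterior neural genes hesx1 and fezf2 were at the limit of detection at both stages. The gene hesx1 (chr11:42344033-42345374, plus strand), a homeobox repressor of the anterior neural plate, had no count in 4 libraries and 1 count in post-MBT A. Its deposited exonic length is 419 bp, which leaves less sequence to collect reads than the 1182 to 3914 bp of the other members. Whether length has a part in its low count was not tested. The gene fezf2 (chr11:19894229-19897068, plus strand), a zinc-finger regulator of forebrain neurons, had 1 count in each of MBT A and B and none elsewhere. No fold change is given for either, since both stages lie at or under the floor of 3 counts over the group.

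On the scale per exonic length, which allows genes to be compared, the order at the MBT was zic2b (61.9 ± 1.99 CPM per kb), irx7 (13.1 ± 0.824), zic2a (2.44 ± 0.509), irx1b (1.02 ± 0.389), zic1 (0.511 ± 0.359), otx2 (0.191 ± 0.0804), fezf2 (0.0971 ± 0.0901) and hesx1 at 0. The libraries of irx1b and zic1 overlapped, as did those of every neighbouring pair below them, while the 4 highest genes were separated. After the MBT the order was zic2b (286 ± 2.67 CPM per kb), zic2a (20.2 ± 0.382), irx7 (8.45 ± 0.383), irx1b (3.55 ± 0.2), zic1 (0.995 ± 0.228), hesx1 (0.384 ± 0.543), otx2 (0.0886 ± 0.00898) and fezf2 at 0. The first 5 were separated there, and the order below zic1 rests on 3 counts in all. The genes zic2a and irx7 thus exchanged places between the stages.

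**Figure D4:**
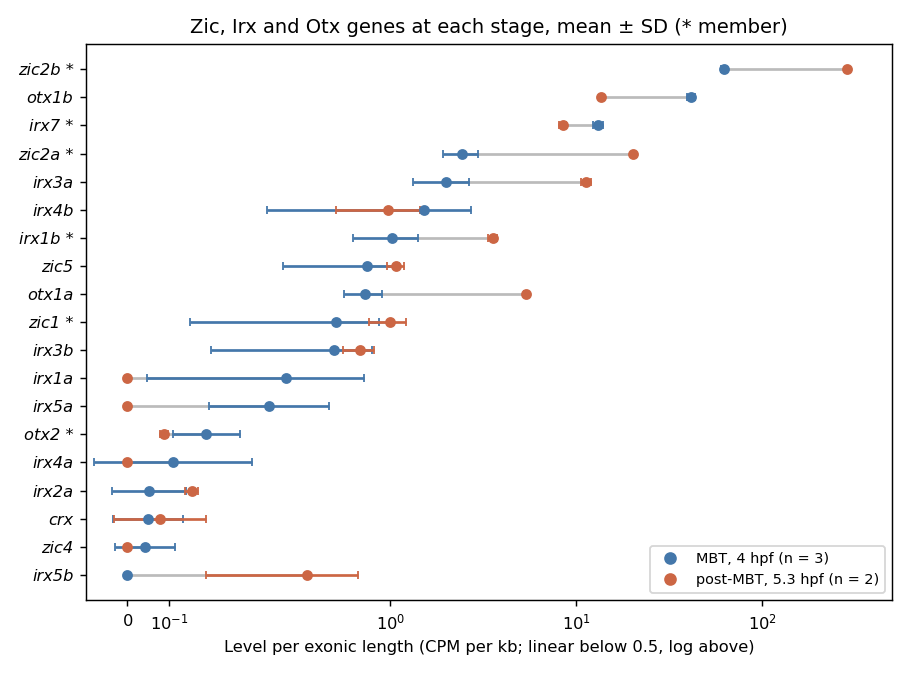
Mean level ± SD in CPM per kb of exonic length (horizontal axis, linear below 0.5 and logarithmic above) of 19 Zic, Irx and Otx genes, at the MBT (blue) and after it (orange), ordered by the MBT level. The post-MBT point of zic2b stands alone at 286 CPM per kb, and the genes below zic1 at the MBT stay under 1 CPM per kb at both stages.

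Genes with the most similar levels over the 5 libraries were found by Euclidean distance in log2(CPM + 1) to each of 9130 other tested genes with a gene name. The nearest to zic2b were marcksl1b (distance 0.244) and fscn1a (0.494), and to zic2a kpna3 (0.206) and dspa (0.259). For irx7 they were hdac5 (0.193) and nutf2l (0.223), and for irx1b fkbp15 (0.367) and mrpl57 (0.406). The libraries fall into 2 stages, so this likeness is one of level and stage difference only. The gene marcksl1b, for instance, rose from 133 ± 10.7 CPM (SD, n = 3) to 587 ± 33.0 CPM (SD, n = 2).

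Changes depend on the scale between libraries. Scaling by library totals moved the median of the log2 fold changes by -0.41. On that scale the log2 fold changes were 2.61 ± 0.21 (SE) for zic2a, 1.80 ± 0.10 for zic2b, 1.35 ± 0.47 for irx1b and -1.04 ± 0.26 for irx7, and the direction and call of each were as with TMM factors.

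The authors' deposited table gives log2 ratios of MBT over post-MBT from DESeq2 and a score, the negative log10 of the adjusted p multiplied by 10, so a higher score is a smaller p. In the authors' deposited table zic2b stands at -2.21 with a score of 1343, zic2a at -2.95 with 264.7 and irx1b at -1.47 with 15.4. The authors' deposited table has irx7 at 0.59 with a score of 7.68 and zic1 at -0.68 with 3.16. The widest of their 3 deposited lists of changed genes (score of at least 10 and log2 ratio of at least 0.585, 5601 genes) holds zic2a, zic2b and irx1b, and the narrower ones (2923 and 1318 genes) hold zic2a and zic2b. In the authors' deposited table the exon comparison of each of the 8 genes is listed at 0. The same 0 stands for zic4, which had 1 count, so it may only mean that no comparison was made.

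Gene lists named for neural territories were read next. They were chosen with earlier results of these data known. A list's name does not show in which cells its genes are expressed at these stages, which was not tested. Pan-neural genes rose in 6 of 10 tested cases and fell in 2 (19 had a row), against 31.0% and 31.8% of all tested genes. Of the 6 rises, 1 passed the filter on low counts in post-MBT libraries alone, so its direction was set by being tested. The tested pan-neural genes had a median log2 fold change of 0.71 against -0.04 over all tested genes. Of these, the SoxB1 gene sox3 changed by a log2 fold change of 2.51 ± 0.09, the SoxC gene sox11a by 1.92 ± 0.08 and sox19a by 1.86 ± 0.11, while sox19b and the geminin gene gmnn, which restrains DNA replication licensing and favours neural fate, changed by -1.74 ± 0.11 and -0.86 ± 0.11.

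Genes of the anterior neural plate, the territory where otx2, hesx1 and fezf2 act later, were nearly all below the level that can be tested. Of 21 with a row, hesx1 and fezf2 among them, 3 were tested, and 5 more listed genes were in the authors' deposited list of genes with under 1 count. The eye field gene rx3 had 7, 14 and 13 counts at the MBT and 3 and 0 after it, a log2 fold change of -2.63 ± 0.75 (SE; edgeR adjusted p = 0.00179), and it was not called without post-MBT B (edgeR adjusted p = 0.0874, range 1.72e-04 to 0.0874 over 11 alternatives) and not tested without MBT B or without MBT C, where it did not pass the filter. Its log2 fold change was -1.77 without post-MBT B and -6.45 without post-MBT A, where the remaining library has no count. The telencephalon gene emx3 had 8, 7 and 11 counts against 2 and 3 (log2 fold change -1.57 ± 0.71; edgeR adjusted p = 0.0484), and 7 of its 9 alternatives did not call it (adjusted p of 0.0104 to 0.315 over the 9). Both genes passed the filter on low counts in MBT libraries alone. The third, the six3-related gene six7, stood at 3.30 ± 1.73 CPM (SD, n = 3) and 4.99 ± 0.226 CPM (SD, n = 2) with no call, though it was called up without MBT B (edgeR adjusted p = 0.0395). Among the genes past the filter edgeR called no anterior neural gene up, against 31.0% of all tested genes. It also called 0 at an unadjusted p under 0.05, and limma-voom on the same filtered genes called 0. Having passed in MBT libraries alone, rx3 and emx3 had little room to be called up, so these values of 0 rest on six7. With DESeq2 1 gene was called up (pax6b). Without the filter edgeR called 2 up, pax6b (edgeR adjusted p = 8.04e-04) and emx2 (edgeR adjusted p = 0.0493). Both were named after their values were seen. The eye and forebrain gene pax6b had 0, 1 and 2 counts at the MBT and 11 and 7 after it, a pooled ratio of 10.4 with a 95% exact counting interval of 3.02 to 54.9.

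Genes of the midbrain and hindbrain territory were split. Of 12 with a row, 4 were tested, 2 rose and 2 fell, against 31.0% and 31.8% of all tested genes. The signal gene fgf8a of the midbrain-hindbrain boundary rose from 4.71 ± 0.461 CPM (SD, n = 3) to 47.8 ± 2.96 CPM (SD, n = 2). The hindbrain homeobox gene gbx1 had 6, 5 and 3 counts at the MBT and 14 and 15 after it, a log2 fold change of 1.81 ± 0.51 (SE; edgeR adjusted p = 0.00160). It passed the filter in post-MBT libraries alone, so its direction was set by being tested. That call was lost with DESeq2 (adjusted p = 0.0552) and without post-MBT B (edgeR adjusted p = 0.0604, with a range of 2.97e-04 to 0.0604 over 13 alternatives). The falls were her5, at -1.10 ± 0.23, and her11, at -0.67 ± 0.19, neighbouring repressor genes whose deposited models overlap on opposite strands, so their reads cannot be told apart where they do. In the list of posterior neural genes 3 of 4 tested genes rose (eve1, cdx4 and pou5f3, the last a pluripotency gene of the whole blastoderm) and evx1 fell, from 6.25 ± 1.55 CPM (SD, n = 3) to 1.55 ± 0.0871 CPM (SD, n = 2). For 3 of these 4 genes the direction follows from the filter, which eve1 and cdx4 passed after the MBT alone and evx1 at the MBT alone.

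**Figure D5:**
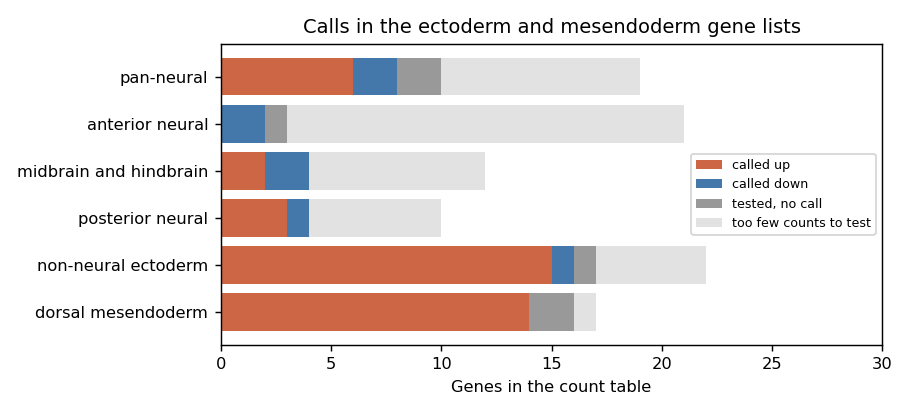
Number of genes with a row in each list (horizontal axis), divided into those called up, called down, tested with no call and with too few counts to test. In the anterior neural list 18 of 21 genes could not be tested, while in the non-neural ectoderm list 15 of 22 were called up.

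Beside these, non-neural ectoderm and ventral genes rose in 15 of 17 tested cases and 1 (klf2a) fell, against 31.0% and 31.8% of all tested genes. Their median log2 fold change was 2.53. The lowest adjusted p among the rises were those of krt8, evpla and vent. In the list named dorsal mesendoderm, 14 of 16 tested genes rose, with a median of 3.48. This list is not limited to dorsal genes, and its lowest adjusted p were those of the mesendoderm genes ta, tbx16 and mixl1. None of its genes was called down by edgeR (none either at an unadjusted p under 0.05, with DESeq2 or with limma-voom). The filter was passed in post-MBT libraries alone by 1 of the 15 non-neural genes and 4 of the 14 mesendoderm genes that rose. No test compared these lists with the Zic, Irx and Otx genes.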

How the data were processed

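RNA-seq counts of zebrafish embryos at 4 and 5.3 hpf were analysed. Per the labels' protocols, total RNA was reverse-transcribed with random hexamers, tagmented and amplified over 10 PCR cycles, and Novoalign 2.8 and DESeq2 are named in the submitters' processing notes. Per the file headers, the deposited counts are whole-number alignments per gene on build D_rerio_Sep_2014, and the strand was not used as far as the headers say. The authors' log2 ratios (MBT over post-MBT) and the authors' score, the negative log10 of the adjusted p multiplied by 10, were only copied. The deposited starts count from 0 (end minus start equals exonic length in 636 single-block genes) and are given from 1. Another 10 per-library columns stayed out. Count columns show a stage but no sample, so the libraries carry letters (MBT A to C, post-MBT A and B). Pairs within a stage had chi-square values of 1.26 to 1.91 for each degree of freedom, above sampling noise. Each library counted as 1 replicate, though this does not show that the libraries are independent, since such spread may be technical.

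The fit across genes used edgeR 4.0.16 under R 4.3.3 (TMM factors, filterByExpr at a minimum count of 10, quasi-likelihood with robust dispersions, Benjamini-Hochberg over all 12007 tested genes), and an adjusted p under 0.05 was called. CPM divide counts by a library's tested-gene counts times its TMM factor, on a common scale. Alternatives used other scalings, filters, DESeq2 1.42.0, limma-voom (limma 3.58.1), an offset for exonic length, and each library left out. Ratios within a library used 2-sided exact permutation tests (scipy 1.17.1). Intervals of pooled count ratios are exact conditional binomial intervals. The edgeR step was checked on simulated counts. The genes named are the members, other Zic, Irx and Otx genes, in each list the 3 other genes of lowest adjusted p in each direction, and the 2 nearest profiles of each tested member; exceptions are marked. The members and lists were chosen with earlier results of these data known. RefSeq names came from assembly GRCz12tu, where 8 of 8 members matched, 7 by symbol and otx2 as a synonym. The result of 1 gene, and values that rest on it, are not reported here.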

Additional observations from a re-analysis of the deposited data

How the results depend on the processing

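Over the 13 alternatives the number of the 8 genes called up was 3 each time, and zic2a, zic2b and irx1b kept their direction and call. For irx1b the kept direction is not further support where the filter was used, since it passed in post-MBT libraries alone. The number called down, 1 (irx7), was 0 with the DESeq2 Wald test and 0 to 1 when single libraries were left out, and the Irx family count did the same, at 0 with DESeq2 and 0 to 1. With library totals 2173 of all genes rose and 5574 fell, against 3724 and 3813 with TMM factors, and with DESeq2 2539 fell. Anterior neural genes called up numbered 1 with DESeq2, 2 with no filter (pax6b and emx2) and 0 to 1 with a library left out. Those called down were 1 with RLE factors, upper-quartile factors, DESeq2, limma-voom, no filter and without mitochondrial genes, and 0 to 1 with a library left out (0 without MBT B, MBT C or post-MBT B). Midbrain and hindbrain genes called up numbered 1 with DESeq2 and 1 to 2 with a library left out. The cause of these differences was not tested. Both ratios within a library kept their direction in their 6 alternatives. The stages did not overlap in either ratio, so leaving out a library could not reverse it, and the kept direction is not further support. For the ratio of irx7 to irx1b the direction also rests on irx1b having passed the filter in post-MBT libraries alone. Leaving out a post-MBT library leaves 1 there, which is assumed to vary like the others. No paired analysis was possible because the count columns carry no replicate number from the labels. With 3 against 2 libraries and 3 counts at about 1 CPM, zic1, otx2, hesx1 and fezf2 are limited by depth.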

Other observations

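In a longer list of 13 neuron and glia genes, which holds the neuron markers of the report, 8 had a row and 1 was tested. That gene, the tubulin gene tubb5, was called up with a log2 fold change of 0.74 ± 0.21 (SE), as were 31.0% of all tested genes. It was not called with library totals, with the DESeq2 Wald test or without post-MBT A.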
